A study of Saccharomyces cerevisiae with 8 samples.

Results

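The genes described here are 47 yeast genes that encode ubiquitin ligases and subunits of multi-protein ligases, out of 5444 genes measured. They were taken by name, not by their values, but with earlier results of these data known. They comprised 3 HECT ligases, 12 RING ligases, 5 cullin and core genes of the SCF type and 10 F-box proteins. The others were 14 subunits and activators of the anaphase-promoting complex (APC) and 3 subunits of the GID ligase. Each of the 47 was read by 1 probe set of its own on Affymetrix GeneChip Yeast Genome 2.0 arrays, so 47 of 47 were measured. The study used cells of *Saccharomyces cerevisiae* strain CEN.PK113-11C, a haploid strain given in the methods as *MATα*, *MAL2-8c* and *SUC2*, with mutations in *HIS3* and *URA3*. The L-UBB+1 strain carried a p413 TEF plasmid whose TEF promoter gives constitutive, low expression of UBB+1, a frameshifted human ubiquitin, and the control strain carried the same plasmid without insert. Both strains were grown in shake flasks and sampled in the exponential phase (EX) and on day 6 (D6), with 2 biological replicates in each of the 4 groups and 8 arrays in all. The cultures were measured in bulk, so a lower level per cell cannot be told apart from fewer cells with the transcript.

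A ubiquitin ligase, or E3, brings a ubiquitin-loaded conjugating enzyme (E2) to a substrate and thereby decides which proteins are marked, mostly for the proteasome. HECT ligases take the ubiquitin onto themselves before they pass it on, whereas RING ligases let the E2 hand it over directly. In the SCF ligases a cullin holds a RING protein at one end and, through the adaptor Skp1, one of many exchangeable F-box proteins at the other, and the F-box protein picks the substrate. The APC is a large relative of the SCF with its own cullin-like and RING subunits, and the activators Cdc20 and Cdh1 direct it to cyclins and other mitotic proteins. The GID complex removes enzymes of gluconeogenesis when glucose returns to starved yeast.

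The arrays did not bear out every label. Marker lists for growth and for stationary phase were averaged on each array. The 11 growth genes averaged 11.46 and 11.48 on the log2 scale in control EX, 11.73 and 11.76 in control D6, 10.28 and 10.21 in L-UBB+1 EX, and 10.25 and 10.30 in L-UBB+1 D6. The 15 stationary phase genes averaged 8.55 and 8.42, 7.87 and 8.11, 10.97 and 11.27, and 11.34 and 10.94 in the same order. The arrays labelled control D6 thus read as more growing than those labelled control EX, and the arrays labelled L-UBB+1 EX read as stationary as those labelled D6. The arrays labelled L-UBB+1 EX replicate 1 and D6 replicate 2 were also nearer to each other than replicates were: over the 47 genes the SD of their difference was 0.0757 on the log2 scale, and it was 0.0995 for EX replicate 2 against D6 replicate 1, against 0.162 to 0.259 for the 4 replicate pairs. In the control strain EX replicate 2 and D6 replicate 2 were also closer than replicates over the 47 genes, at 0.139, but not over all genes. Over all genes that SD was 0.248, within the 0.202 to 0.287 of the replicate pairs, and the L-UBB+1 pairs named above gave 0.086 and 0.143. Mating type markers also went against the methods. The a-cell receptor gene *STE2* read 9.99 to 10.74 on the control arrays and 7.55 to 7.83 on the L-UBB+1 arrays, while the alpha-factor gene *MF(ALPHA)1* read 5.90 to 6.47 on all 8. The a-cell gene *MFA1* went the other way from *STE2*, at 8.90 to 9.34 on the control arrays and 9.53 to 9.80 on the L-UBB+1 arrays. Its log2 fold changes were 0.31 at EX and 0.63 at D6, neither called. Of the 4 alpha-cell genes, 1 rose at EX (*SAG1*, 1.06 on the log2 scale) and 0 at D6, and all 4 had log2 fold changes above 0, from 0.11 to 1.06 at EX and from 0.06 to 0.99 at D6. By the rule for calls given below, 8 of the 11 growth genes fell and 9 of the 15 stationary phase genes rose in the L-UBB+1 strain at both phases, with 1 of the latter lower at D6, and 4 of 5 a-cell genes fell at both. Of the 5444 genes, 819 rose and 812 fell at both phases. Groups are named by their labels below, and whether labels were exchanged was not tested. Many of these markers moved with the strain, and their part in the results below was not tested.

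At EX, 23 of the 47 genes rose in the L-UBB+1 strain and 1 fell, where a call required a limma p of less than 0.001 after Benjamini-Hochberg adjustment together with a change of no less than 1 on the log2 scale. Of the 5444 genes, 17.2% rose and 17.1% fell by that rule. At D6, 21 rose and 0 fell, against 17.9% and 18.5% of all genes, and in that comparison 40 of the 47 had an unadjusted p under 0.05 in limma, as did 77.7% of all genes. The methods name a Student t test for differences between strains in general, and PIANO for the arrays. Run per gene with equal variances, the t test passed 33 higher and 2 lower at D6 at an unadjusted p under 0.05 (60.5% of all genes). Under the rule for calls it passed 0 members and 0 of all genes at either phase. The median log2 fold change of the 47 was 1.03 at EX and 0.88 at D6, and that of all genes was 0.00 and -0.01. Both phases shared 20 of the rises, and of the 5444 genes 819 were called higher and 812 lower at both phases. *SAN1*, *BRE1* and *CDC23* rose and *APC11* fell at EX alone by this rule, and *SAF1* rose at D6 alone, but limma called no member for a change of the strain difference between phases, as given below.

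**Figure D1:**
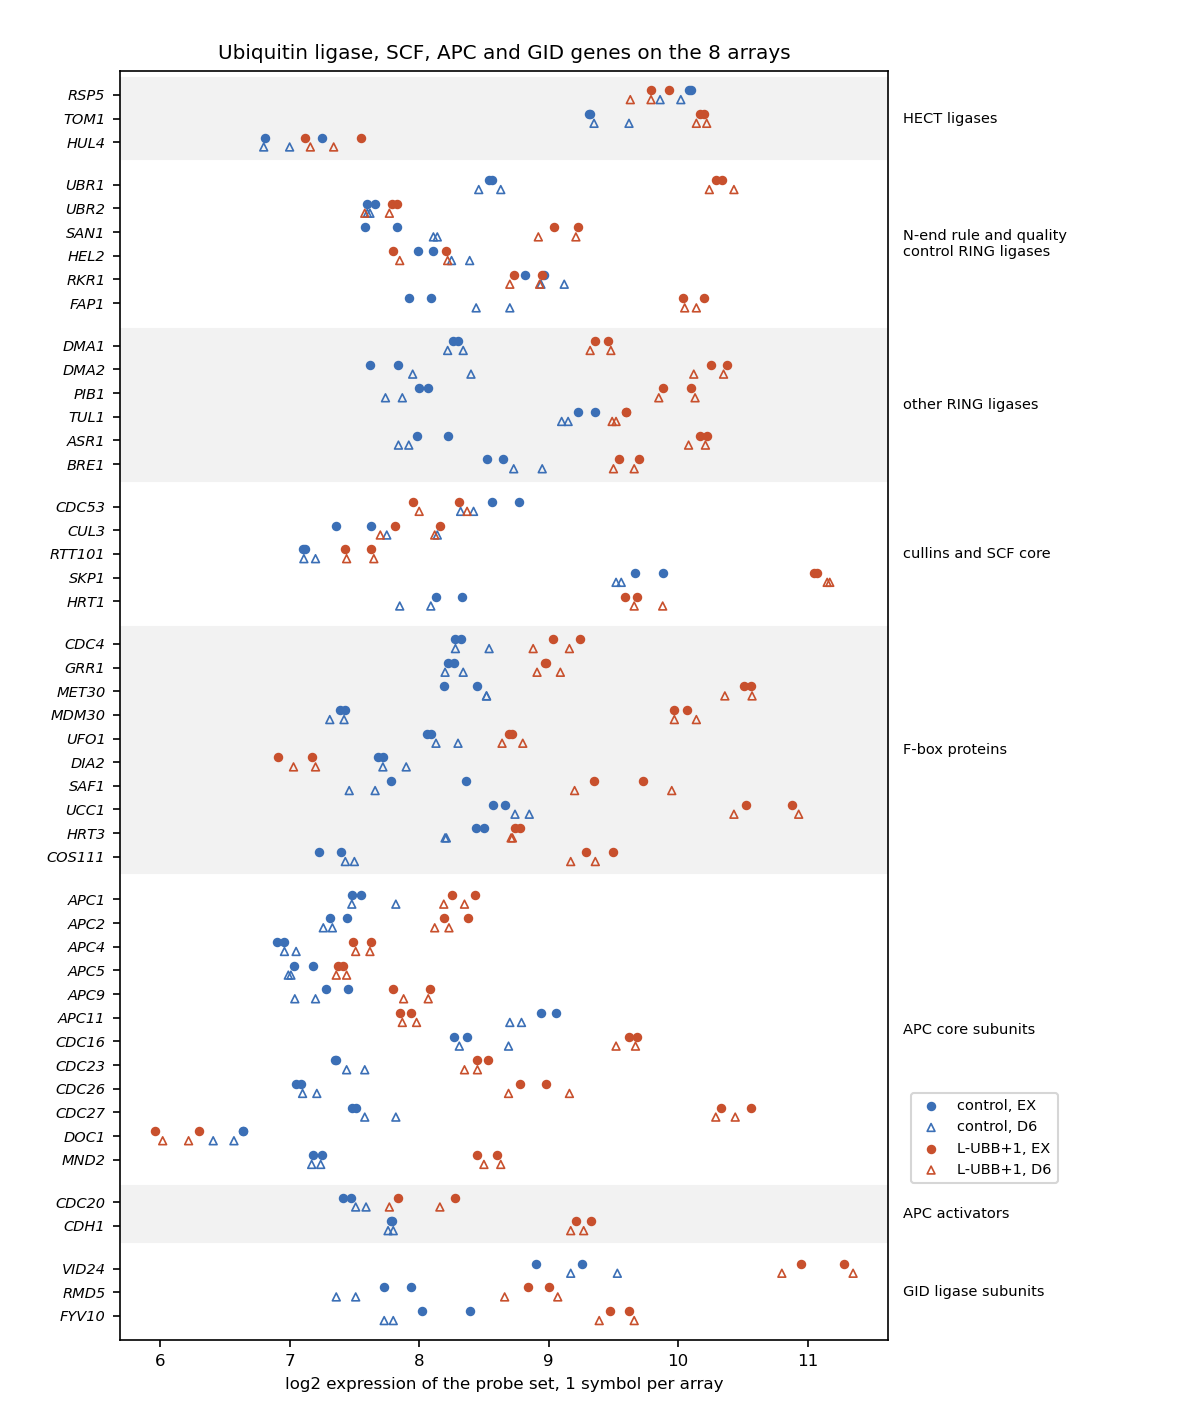
Each symbol is the log2 expression of a gene's probe set on 1 array, with 2 arrays in each group (filled circles, EX; open triangles, D6; blue, control; red, L-UBB+1), and the genes are ordered by their role. Both L-UBB+1 arrays lay above both control arrays of the same phase for 39 genes at EX and 38 at D6, against 44.5% and 43.4% of all genes.

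The arrays of the 2 strains did not overlap for most members, and the same held for most of all genes (617 of 5444 overlapped at EX and 678 at D6). At EX both L-UBB+1 arrays lay above both control arrays for 39 genes and below them for 5, against 44.5% and 44.2% of all genes, and 3 genes overlapped. At D6 the counts were 38 above, 6 below and 3 overlapping, against 43.4% and 44.1% of all genes. Without a minimum fold, at an adjusted p under 0.05 in limma, 37 members were higher and 4 lower at EX (37.2% and 37.5% of all genes), and 36 were higher and 3 lower at D6 (37.7% and 38.4%). With the control D6 and L-UBB+1 EX arrays left out, L-UBB+1 D6 stood 21 members higher and 1 lower against control EX, with 15.4% of all genes higher and 15.8% lower, a comparison in which strain and phase cannot be told apart. The control arrays of each phase served 1 strain comparison each, so the fold changes at EX and D6 share no array. Some arrays of different phases were, however, closer than replicates. The p-values at both phases used a spread estimated per gene from all arrays, so the calls at EX and D6 were not independent.

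**Figure D2:**
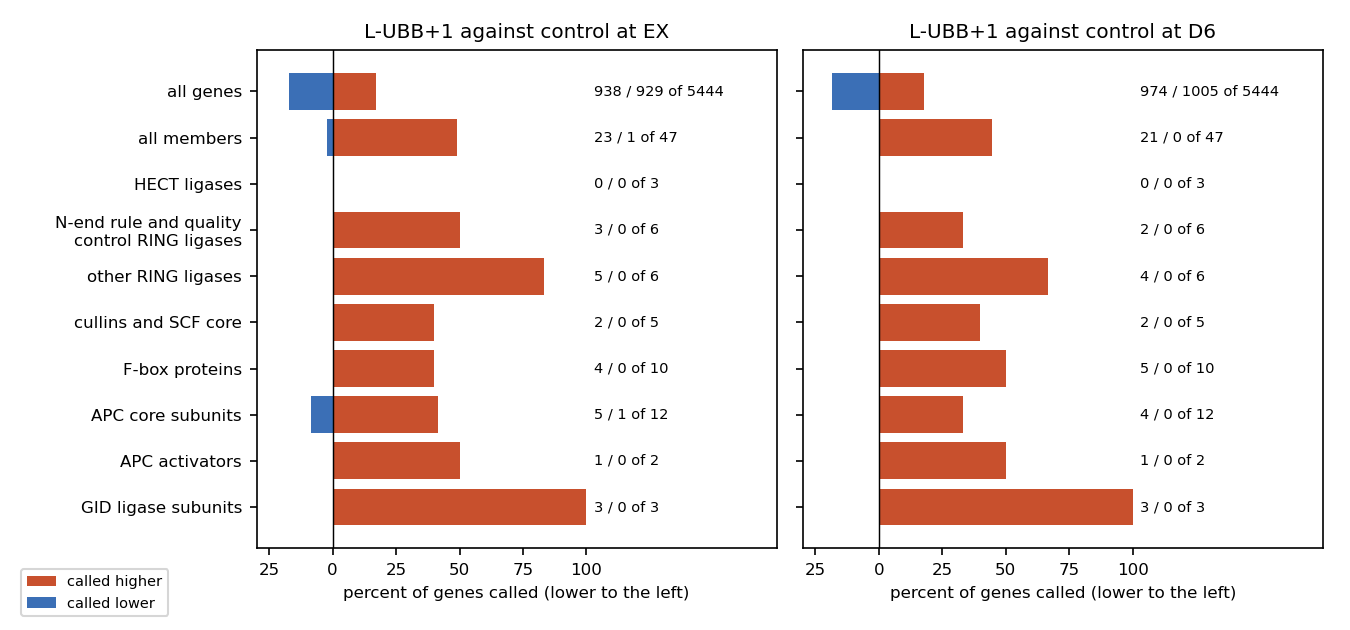
Bars give the percent of genes called higher (red, to the right) or lower (blue, to the left) in the L-UBB+1 strain at EX and D6, for all 5444 genes, the 47 members and the 8 role groups, with the counts higher / lower beside them. Calls among the members ran almost wholly one way, 23 higher and 1 lower at EX, where all genes split 938 to 929.

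The HECT ligases were the role group with no call, 0 of 3 in limma at either phase. *RSP5*, the essential ligase for endocytosis of membrane proteins, read 10.10 and 10.08 in control EX, 9.86 and 10.02 in control D6, 9.93 and 9.79 in L-UBB+1 EX, and 9.63 and 9.79 in L-UBB+1 D6. Its highest values were in control EX and its lowest single value in L-UBB+1 D6, and the strains did not overlap at either phase, with a log2 fold change of -0.23 (95% interval -0.48 to 0.02) at EX and -0.23 (-0.48 to 0.02) at D6. *TOM1*, whose product removes excess ribosomal proteins and histones, was 1.82-fold higher at EX (adjusted p = 0.000244) and 1.62-fold higher at D6 (adjusted p = 0.00076), which passed the p but not the fold. *HUL4* had log2 fold changes of 0.30 and 0.35, with SE 0.19, and did not pass. At an unadjusted p under 0.05 in limma, 1 of the 3 passed at EX and 1 at D6, against 76% and 77.7% of all genes.

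Among the 6 RING ligases of the N-end rule and of quality control, 3 rose at EX and 2 at D6, where 17.2% and 17.9% of all genes rose. *UBR1* encodes the ligase that reads destabilizing N-terminal residues, and it read 8.54 and 8.56 in control EX, 8.63 and 8.46 in control D6, 10.29 and 10.34 in L-UBB+1 EX, and 10.43 and 10.24 in L-UBB+1 D6. All 4 L-UBB+1 arrays lay far above all 4 control arrays, and the rise was 3.39-fold at EX (1.76 ± 0.11 SE on the log2 scale, adjusted p = 6.71e-06) and 3.46-fold at D6 (1.79 ± 0.11, adjusted p = 6.11e-06). Its paralogue *UBR2*, which acts on the proteasome gene activator Rpn4, read 7.60 and 7.66 at EX and 7.62 and 7.60 at D6 in the control strain, against 7.83 and 7.79 at EX and 7.58 and 7.77 at D6 in the L-UBB+1 strain. The values lay close together on all 8 arrays, and the log2 fold change was 0.18 at EX (95% interval -0.05 to 0.41) and 0.07 at D6 (-0.16 to 0.30).

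*FAP1* encodes a RING protein that binds the rapamycin receptor Fpr1. It read 7.92 and 8.09 in control EX, 8.70 and 8.44 in control D6, 10.20 and 10.04 in L-UBB+1 EX, and 10.05 and 10.14 in L-UBB+1 D6. Strain separated the arrays fully, with control D6 above control EX, and the rise was 4.34-fold at EX (2.12 ± 0.13 SE on the log2 scale, adjusted p = 6.03e-06) and 2.88-fold at D6 (1.52 ± 0.13, adjusted p = 2.46e-05). *SAN1*, the nuclear ligase for misfolded proteins, read 7.58 and 7.83 at EX and 8.14 and 8.11 at D6 in the control strain, against 9.23 and 9.04 at EX and 8.92 and 9.21 at D6 in the L-UBB+1 strain. Here too no control array reached an L-UBB+1 array, and the level was higher by 2.69-fold at EX (adjusted p = 5.81e-05) and by 1.92-fold at D6 (adjusted p = 0.000513), where the fold fell short of the rule. *HEL2*, which senses collided ribosomes, read 7.99 and 8.11 in control EX, 8.39 and 8.25 in control D6, 8.21 and 7.80 in L-UBB+1 EX, and 7.85 and 8.22 in L-UBB+1 D6. The strains overlapped at EX and did not at D6, where both control arrays were higher, and the log2 fold changes were -0.04 and -0.28 with SE 0.17. *RKR1*, which tags nascent chains on stalled ribosomes, gave -0.05 and -0.22 with SE 0.13.

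Of the other 6 RING ligases, 5 rose at EX and 4 at D6, where 17.2% and 17.9% of all genes rose. *DMA2* and its paralogue *DMA1* encode FHA-domain ligases of septin assembly and the spindle position checkpoint. *DMA2* read 7.62 and 7.84 in control EX, 8.40 and 7.95 in control D6, 10.38 and 10.25 in L-UBB+1 EX, and 10.12 and 10.35 in L-UBB+1 D6. Every L-UBB+1 array lay above every control array, and the rise was 6.00-fold at EX (2.59 ± 0.17 SE on the log2 scale, adjusted p = 9.33e-06) and 4.16-fold at D6 (2.06 ± 0.17, adjusted p = 2.53e-05). *DMA1* read 8.26 and 8.30 at EX and 8.34 and 8.22 at D6 in the control strain, against 9.46 and 9.36 at EX and 9.32 and 9.48 at D6 in the L-UBB+1 strain. It showed the same order of strains, the groups again apart, and the rise was 2.19-fold at EX (1.13 ± 0.10 SE on the log2 scale, adjusted p = 3.75e-05) and 2.17-fold at D6 (1.12 ± 0.10, adjusted p = 3.88e-05).

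*PIB1*, the endosomal and vacuolar FYVE-domain ligase, read 8.07 and 8.0 in control EX, 7.74 and 7.87 in control D6, 9.88 and 10.10 in L-UBB+1 EX, and 10.13 and 9.85 in L-UBB+1 D6. Control D6 was the lowest group, the L-UBB+1 arrays did not overlap with any control, and the rise was 3.87-fold at EX (1.95 ± 0.13 SE on the log2 scale, adjusted p = 9.79e-06) and 4.54-fold at D6 (2.18 ± 0.13, adjusted p = 6.09e-06). *ASR1*, a ligase for subunits of RNA polymerase II, read 8.22 and 7.98 at EX and 7.92 and 7.84 at D6 in the control strain, against 10.22 and 10.17 at EX and 10.08 and 10.21 at D6 in the L-UBB+1 strain. It had the same pattern with the L-UBB+1 arrays tightly grouped, and the rise was 4.28-fold at EX (2.10 ± 0.11 SE on the log2 scale, adjusted p = 4.19e-06) and 4.82-fold at D6 (2.27 ± 0.11, adjusted p = 2.9e-06). *BRE1*, which marks histone H2B together with Rad6, was 2.05-fold higher at EX (adjusted p = 0.000153) and 1.67-fold at D6 (adjusted p = 0.000859); with a log2 fold change of 1.03 it sat just above the fold minimum at EX, and it was not called there without either control EX array or without L-UBB+1 EX replicate 1 (adjusted p from 0.00125 to 0.00213). *TUL1*, the Golgi membrane ligase, read 9.36 and 9.23 in control EX, 9.10 and 9.15 in control D6, 9.60 and 9.60 in L-UBB+1 EX, and 9.49 and 9.52 in L-UBB+1 D6. All L-UBB+1 arrays stood slightly above the control arrays, with 1.23-fold at EX (adjusted p = 0.0171) and 1.3-fold at D6 (adjusted p = 0.00554), and it was not called.

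**Figure D3:**
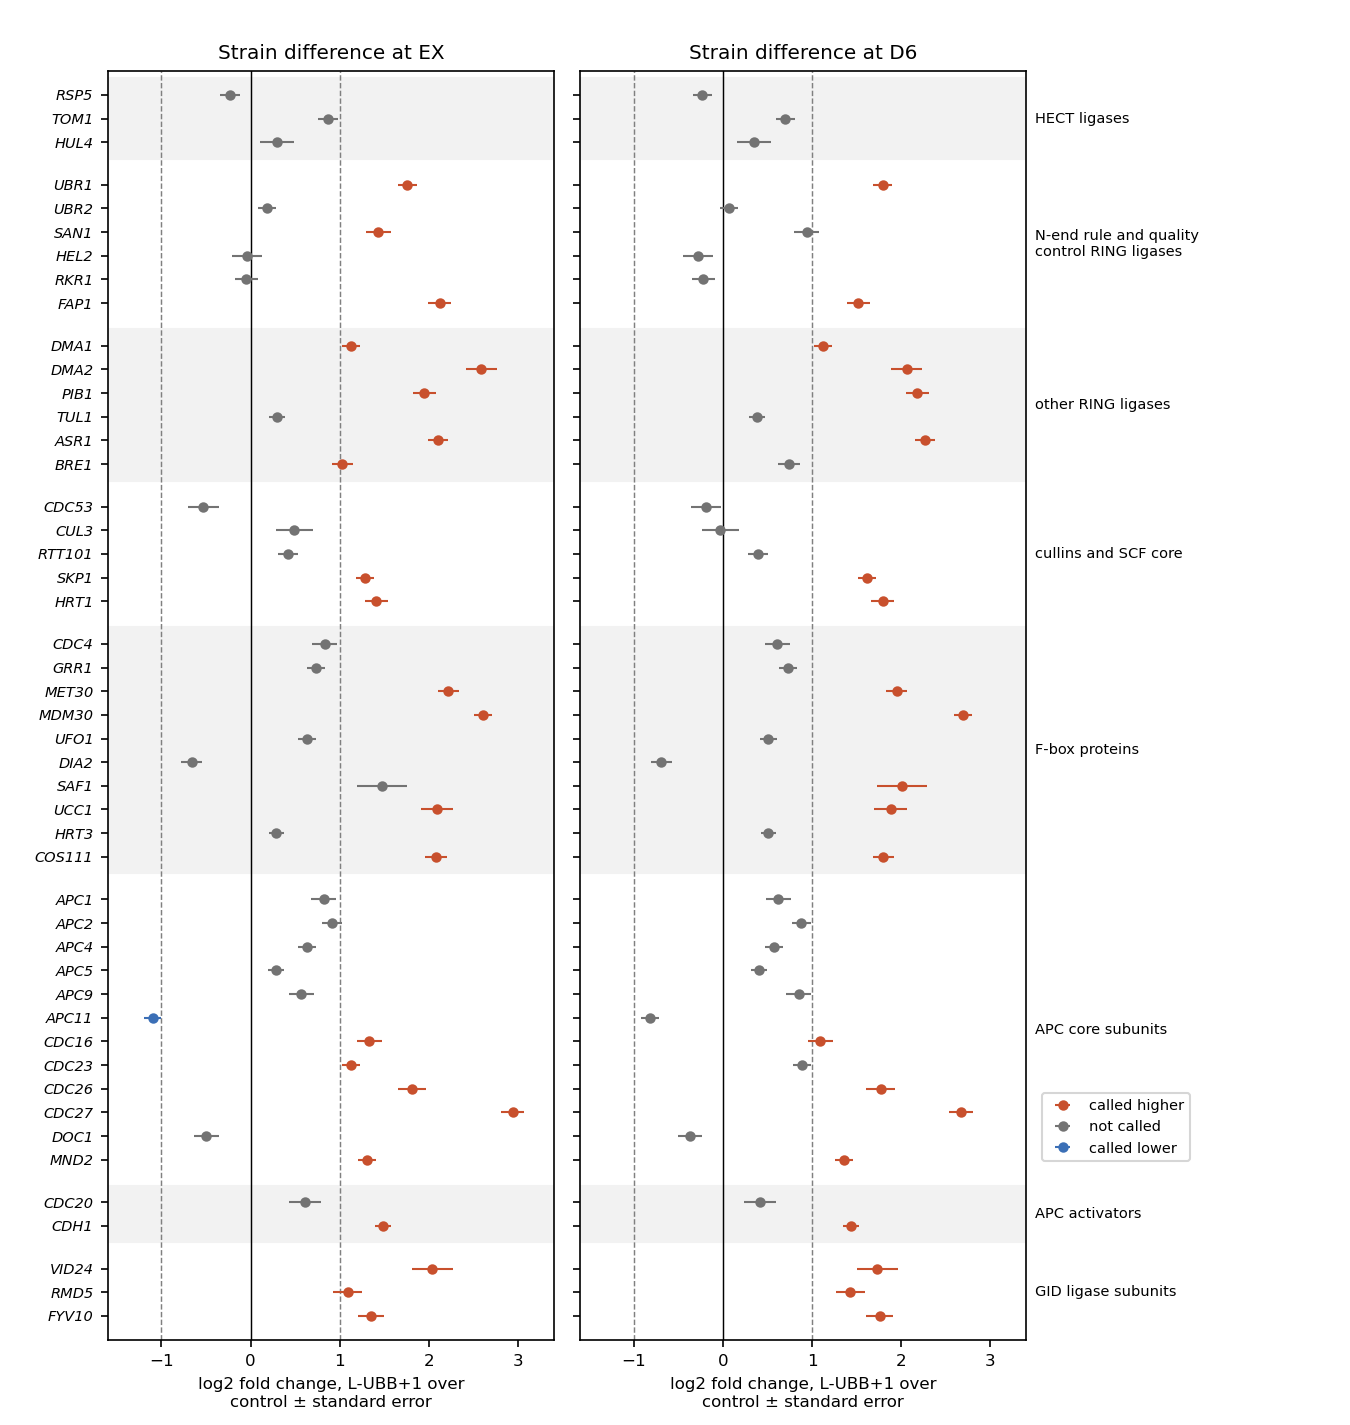
Points give the log2 fold change of the L-UBB+1 strain over the control strain at EX (left) and D6 (right), with the standard error from limma as bars and dashed lines at the minimum of 1 for a call (red, called higher; blue, called lower; gray, not called). *CDC27* had the largest change at EX, 2.94, and *APC11* is the single blue point, at -1.1.

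The SCF core split between its subunits. *CDC53*, the cullin, read 8.77 and 8.56 in control EX, 8.42 and 8.32 in control D6, 7.95 and 8.31 in L-UBB+1 EX, and 8.37 and 8.0 in L-UBB+1 D6. It was lower in the L-UBB+1 strain on average at EX, and the strains overlapped at D6. The log2 fold change was -0.53 at EX (adjusted p = 0.0222) and -0.19 at D6 (adjusted p = 0.346), neither called. *SKP1*, the adaptor to the F-box proteins, read 9.88 and 9.67 at EX and 9.52 and 9.56 at D6 in the control strain, against 11.05 and 11.07 at EX and 11.15 and 11.17 at D6 in the L-UBB+1 strain. All 4 L-UBB+1 arrays were above 11 and all 4 control arrays below 10, and the rise was 2.43-fold at EX (1.28 ± 0.10 SE on the log2 scale, adjusted p = 1.9e-05) and 3.06-fold at D6 (1.62 ± 0.10, adjusted p = 6.85e-06). *HRT1*, the RING subunit, read 8.33 and 8.13 in control EX, 8.09 and 7.85 in control D6, 9.59 and 9.68 in L-UBB+1 EX, and 9.88 and 9.66 in L-UBB+1 D6. The strains were again apart on every array, and the rise was 2.66-fold at EX (1.41 ± 0.13 SE on the log2 scale, adjusted p = 4.49e-05) and 3.47-fold at D6 (1.79 ± 0.13, adjusted p = 1.38e-05). Of the other cullins, *RTT101*, of the replication fork ligase, read 7.12 and 7.10 at EX and 7.20 and 7.11 at D6 in the control strain, against 7.63 and 7.43 at EX and 7.44 and 7.65 at D6 in the L-UBB+1 strain. It was a little higher in the L-UBB+1 strain without overlap, 1.34-fold at EX and 1.31-fold at D6 (adjusted p = 0.0108 and 0.0146), and was not called. *CUL3*, whose cullin pairs with elongin, had log2 fold changes of 0.49 and -0.03 with SE 0.21.

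Of the 10 F-box genes, 4 rose at EX and 5 at D6 and none fell, where 17.2% and 17.9% of all genes rose. *MDM30*, which directs the mitofusin Fzo1 to degradation, read 7.43 and 7.39 in control EX, 7.31 and 7.42 in control D6, 10.07 and 9.97 in L-UBB+1 EX, and 9.97 and 10.14 in L-UBB+1 D6. With *CDC27* it had the largest changes among the members at both phases, without overlap between strains, and the rise was 6.09-fold at EX (2.61 ± 0.10 SE on the log2 scale, adjusted p = 1.62e-06) and 6.47-fold at D6 (2.69 ± 0.10, adjusted p = 1.23e-06). *MET30*, which restrains the sulfur regulator Met4, read 8.19 and 8.45 at EX and 8.52 and 8.52 at D6 in the control strain, against 10.56 and 10.51 at EX and 10.36 and 10.57 at D6 in the L-UBB+1 strain. The strains were fully apart, and the rise was 4.65-fold at EX (2.22 ± 0.12 SE on the log2 scale, adjusted p = 4.35e-06) and 3.85-fold at D6 (1.95 ± 0.12, adjusted p = 6.86e-06). *UCC1*, which removes the peroxisomal citrate synthase Cit2, read 8.57 and 8.66 in control EX, 8.85 and 8.74 in control D6, 10.88 and 10.52 in L-UBB+1 EX, and 10.43 and 10.93 in L-UBB+1 D6. Replicates of the L-UBB+1 strain differed by more than those of the control, but none came near a control value, and the rise was 4.25-fold at EX (2.09 ± 0.18 SE on the log2 scale, adjusted p = 3.49e-05) and 3.69-fold at D6 (1.88 ± 0.18, adjusted p = 5.58e-05).

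*COS111* had log2 fold changes of 2.08 and 1.80 and was called at both phases. *SAF1*, which acts on the adenine deaminase Aah1 in quiescence, read 8.36 and 7.78 at EX and 7.66 and 7.46 at D6 in the control strain, against 9.35 and 9.73 at EX and 9.95 and 9.20 at D6 in the L-UBB+1 strain. All L-UBB+1 arrays exceeded all control arrays, yet its SE of 0.28 was the largest among the members, and it passed at D6 (4.04-fold, adjusted p = 0.000403) and not at EX (2.76-fold, adjusted p = 0.00226). The D6 call was lost without either control D6 array or without L-UBB+1 D6 replicate 1 (adjusted p from 0.00103 to 0.00514). *CDC4* and *GRR1*, which bring down the Cdk inhibitor Sic1 and the G1 cyclins, stayed below the fold minimum: *CDC4* gave 0.83 at EX and 0.61 at D6, and *GRR1* gave 0.73 at both phases. *UFO1*, which acts on the Ho endonuclease, gave 0.63 and 0.51. *HRT3*, an F-box gene with the smallest change in its group, read 8.50 and 8.44 in control EX, 8.21 and 8.20 in control D6, 8.74 and 8.78 in L-UBB+1 EX, and 8.72 and 8.71 in L-UBB+1 D6. It was slightly higher in the L-UBB+1 strain on all arrays, 1.23-fold at EX and 1.42-fold at D6. *DIA2*, of the replication fork, was lower on average, -0.66 and -0.69 (adjusted p = 0.00199 and 0.00145), and was not called.

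The 12 core subunits of the APC did not move as one. At EX 5 rose and 1 fell and at D6 4 rose and 0 fell, and the log2 fold changes ran from -1.1 to 2.94 at EX. Of all genes, 17.2% rose and 17.1% fell at EX, and 17.9% rose and 18.5% fell at D6. *CDC27*, of the tetratricopeptide arm that binds the activators, read 7.51 and 7.48 in control EX, 7.82 and 7.58 in control D6, 10.56 and 10.33 in L-UBB+1 EX, and 10.29 and 10.44 in L-UBB+1 D6. It was the largest change among all members at EX, with every L-UBB+1 array above 10 and every control array below 8, and the rise was 7.7-fold at EX (2.94 ± 0.13 SE on the log2 scale, adjusted p = 2.03e-06) and 6.36-fold at D6 (2.67 ± 0.13, adjusted p = 2.58e-06). *CDC26*, a small protein that stabilizes the arm, read 7.09 and 7.05 at EX and 7.10 and 7.21 at D6 in the control strain, against 8.98 and 8.78 at EX and 8.69 and 9.16 at D6 in the L-UBB+1 strain. The strains did not overlap, and the rise was 3.5-fold at EX (1.81 ± 0.16 SE on the log2 scale, adjusted p = 3.55e-05) and 3.41-fold at D6 (1.77 ± 0.16, adjusted p = 3.78e-05). *CDC16*, of the same arm, read 8.27 and 8.37 in control EX, 8.69 and 8.31 in control D6, 9.68 and 9.62 in L-UBB+1 EX, and 9.52 and 9.67 in L-UBB+1 D6. Control D6 replicate 1 was the highest control array and still well below the L-UBB+1 arrays, and the rise was 2.51-fold at EX (1.33 ± 0.14 SE on the log2 scale, adjusted p = 8e-05) and 2.13-fold at D6 (1.09 ± 0.14, adjusted p = 0.00022). Its call was lost without control EX replicate 1 at EX (adjusted p = 0.00129), and at D6 without control D6 replicate 2 (log2 fold change 0.90) or L-UBB+1 D6 replicate 2 (adjusted p = 0.00142). *MND2*, an inhibitor of the meiotic form of the APC, was 2.48-fold and 2.57-fold higher, and *CDC23*, the remaining arm subunit, 2.19-fold and 1.85-fold, called at EX alone.

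*APC11*, the RING subunit that contacts the E2, was the single member that fell. It read 9.06 and 8.94 at EX and 8.70 and 8.79 at D6 in the control strain, against 7.85 and 7.94 at EX and 7.98 and 7.87 at D6 in the L-UBB+1 strain. Every L-UBB+1 array was below every control array, and the level fell by 1.1 on the log2 scale at EX (adjusted p = 3.8e-05), a 2.15-fold lower level. At D6 it was 1.76-fold lower (adjusted p = 0.000175), short of the fold minimum. Of the others, *APC2*, the cullin-like subunit, was 1.88-fold and 1.84-fold higher, and *APC1*, *APC4*, *APC5* and *APC9* gave log2 fold changes between 0.29 and 0.85 over both phases. *APC5* changed least at EX, and it read 7.18 and 7.03 in control EX, 7.01 and 6.99 in control D6, 7.37 and 7.41 in L-UBB+1 EX, and 7.44 and 7.36 in L-UBB+1 D6. It stood slightly above on all L-UBB+1 arrays, with 1.22-fold and 1.32-fold. *DOC1*, which helps the APC hold its substrates, gave -0.50 and -0.37.

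The activators differed in their calls. *CDH1*, which directs the APC from late mitosis through G1, read 7.79 and 7.78 in control EX, 7.80 and 7.76 in control D6, 9.33 and 9.21 in L-UBB+1 EX, and 9.17 and 9.27 in L-UBB+1 D6. The replicates of each group differed by little, and the rise was 2.8-fold at EX (1.49 ± 0.09 SE on the log2 scale, adjusted p = 7.23e-06) and 2.71-fold at D6 (1.44 ± 0.09, adjusted p = 8.08e-06). *CDC20*, which directs it earlier in mitosis, read 7.41 and 7.47 at EX and 7.51 and 7.59 at D6 in the control strain, against 8.28 and 7.84 at EX and 7.77 and 8.16 at D6 in the L-UBB+1 strain. The L-UBB+1 arrays were above the control arrays at both phases, by 1.53-fold at EX (adjusted p = 0.0146) and 1.33-fold at D6 (adjusted p = 0.0637), and neither passed. The difference between the 2 genes was not tested.

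All 3 GID subunits rose at both phases, as did 819 of the 5444 genes. *VID24*, the receptor for proteins with an N-terminal proline, read 8.90 and 9.26 in control EX, 9.53 and 9.17 in control D6, 11.28 and 10.95 in L-UBB+1 EX, and 10.80 and 11.35 in L-UBB+1 D6. The strains were apart although the arrays of each group spread widely, and the rise was 4.1-fold at EX (2.04 ± 0.23 SE on the log2 scale, adjusted p = 0.000125) and 3.31-fold at D6 (1.73 ± 0.23, adjusted p = 0.000289). *RMD5* and *FYV10* encode its RING-type subunits. *RMD5* read 7.94 and 7.73 at EX and 7.36 and 7.51 at D6 in the control strain, against 8.84 and 9.0 at EX and 9.07 and 8.66 at D6 in the L-UBB+1 strain. The L-UBB+1 arrays were above all control arrays, and the rise was 2.12-fold at EX (1.09 ± 0.16 SE on the log2 scale, adjusted p = 0.000483) and 2.7-fold at D6 (1.43 ± 0.16, adjusted p = 0.000104). *FYV10* read 8.39 and 8.02 in control EX, 7.73 and 7.80 in control D6, 9.47 and 9.62 in L-UBB+1 EX, and 9.66 and 9.39 in L-UBB+1 D6. It ran in the same order, control D6 lowest, and the rise was 2.54-fold at EX (1.35 ± 0.15 SE on the log2 scale, adjusted p = 0.000121) and 3.39-fold at D6 (1.76 ± 0.15, adjusted p = 2.95e-05). At EX the call of *RMD5* was lost without any 1 of the 4 control arrays or 2 L-UBB+1 EX arrays (adjusted p from 0.00149 to 0.00563), that of *VID24* without control EX replicate 1 or L-UBB+1 EX replicate 1 (0.00171 and 0.00103), and that of *FYV10* without control EX replicate 2 or L-UBB+1 EX replicate 2 (0.00103 and 0.00113). At D6 *RMD5* and *VID24* were not called without either control D6 array (log2 fold changes 1.36 and 1.51 for *RMD5*, 1.90 and 1.55 for *VID24*). With the arrays labelled control D6 and L-UBB+1 EX left out, *RMD5* was not called for L-UBB+1 D6 against control EX (log2 fold change 1.03, limma adjusted p = 0.00274). With the spread taken from all 8 arrays, limma called it in that same comparison (adjusted p = 0.000638).

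Between phases, limma called 0 members, either within the control strain (0% of all genes), within the L-UBB+1 strain (0%) or for the difference of the strain effect (0%). In the control strain 8 members had an unadjusted p under 0.05, against 27.2% of all genes, the log2 fold changes ran from -0.51 to 0.57, and the smallest adjusted p was 0.0514, for *FAP1*. In the L-UBB+1 strain 0 members had an unadjusted p under 0.05 (0.184% of all genes), with log2 fold changes from -0.15 to 0.13. For the difference of the strain effect, 3 members had an unadjusted p under 0.05, a smaller share than the 15.9% of all genes: *FAP1* (-0.59, SE 0.18, adjusted p = 0.275), *SAN1* (-0.49, adjusted p = 0.303) and *SKP1* (0.33, adjusted p = 0.311). The equal-variance t test, per gene, passed 1 member of the control comparison (11.6% of all genes) and 2 of the L-UBB+1 comparison (2.2%) at an unadjusted p under 0.05, and 0 after adjustment in either. These misses do not show that the phases were alike, and the L-UBB+1 arrays of the phases were the nearly identical ones described above.

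**Figure D4:**
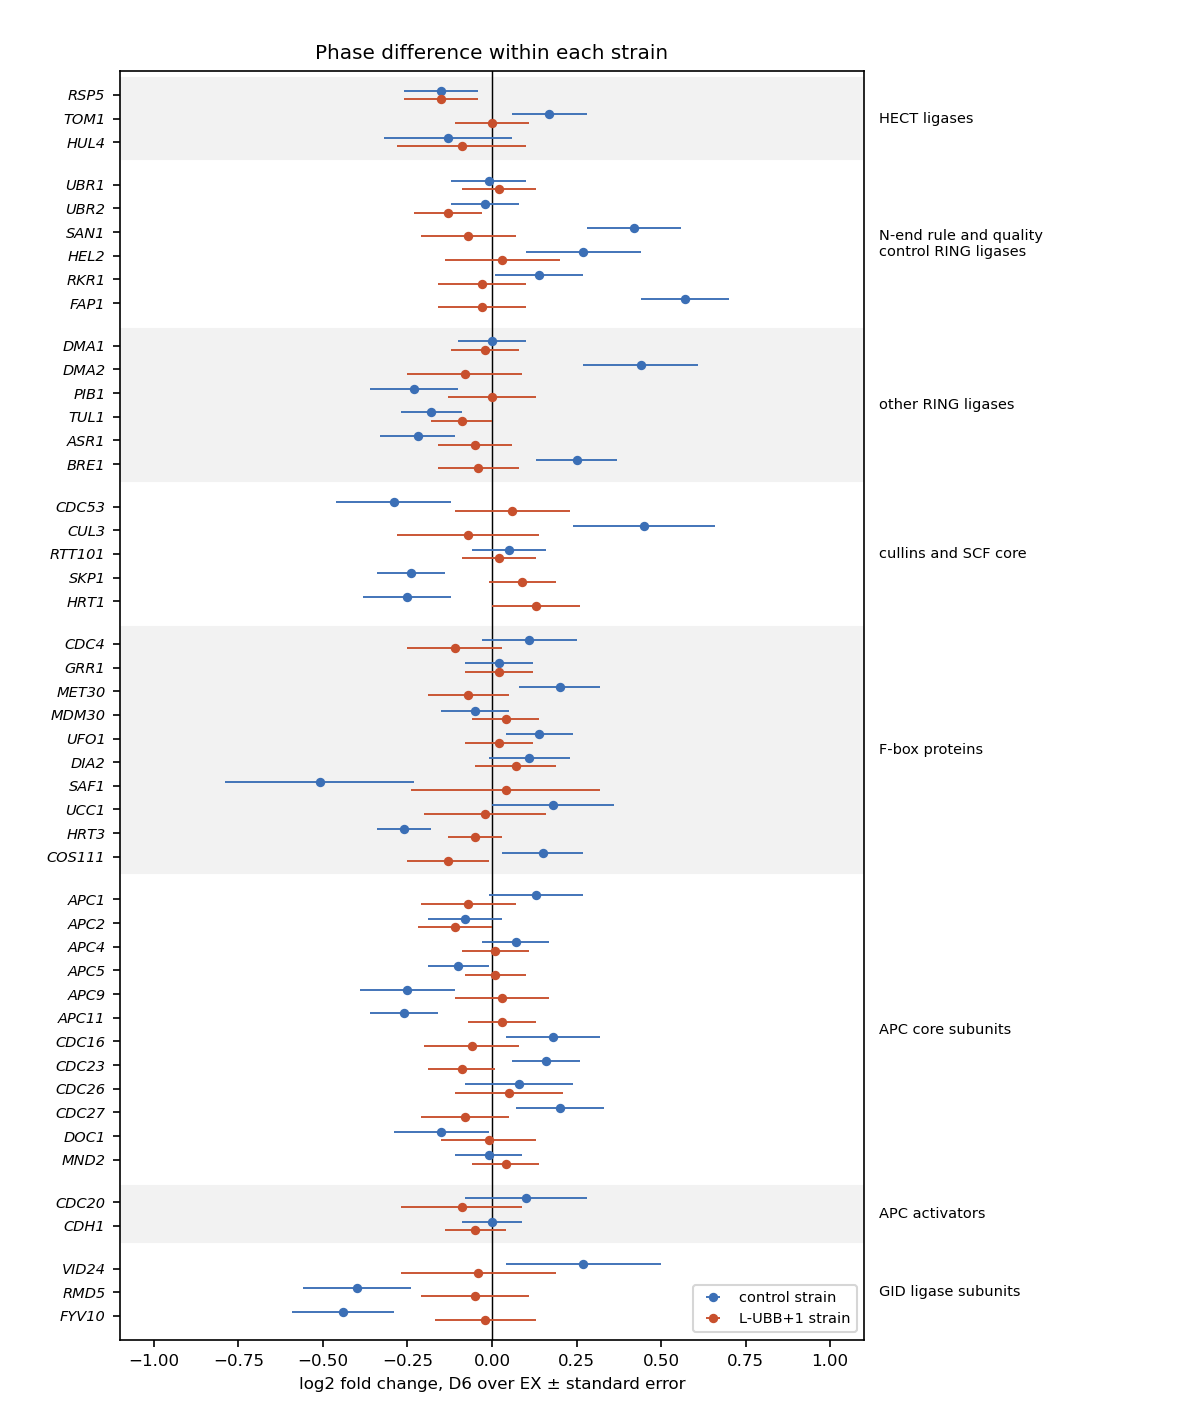
Points give the log2 fold change of D6 over EX within the control strain (blue) and the L-UBB+1 strain (red), with the standard error from limma as bars. The control values spread from -0.51 to 0.57 and the L-UBB+1 values from -0.15 to 0.13, and no gene was called in either strain.

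Genes that work with these ligases were measured from lists of partners and substrates; with the marker lists above, 142 of 146 listed genes were measured. Of 22 other ubiquitin ligases, 12 rose at EX (54.5%) and 11 at D6 (50%) and 0 fell, where 17.2% and 17.9% of all genes rose. Among those that rose was *UFD4*, of the ubiquitin fusion pathway, with log2 fold changes of 1.61 at both phases. Of 11 ubiquitin-conjugating enzymes, 2 rose at EX (18.2%, near the 17.2% of all genes) and 3 at D6 (27.3%, against 17.9%). Among them *CDC34*, the E2 of the SCF, gave 2.21 and 2.14, and *RAD6*, the E2 of *UBR1* and *BRE1*, 1.39 and 1.35. Others went the other way without a call: *UBC4* gave -0.93 and -0.79 and *UBC1* gave -0.62 and -0.43. Of the 11, 3 had log2 fold changes below 0 at each phase. Of 17 adaptors of *RSP5*, 7 rose at each phase (41.2%) and 0 fell, although *RSP5* itself was not called. Of 8 further F-box genes, 1 rose at each phase (12.5%) and 1 fell at D6 (12.5%), shares below those of all genes. Their median log2 fold change was -0.04 at EX and -0.09 at D6, so they did not show the rise of the member F-box genes. Of the 8 genes of Rub1 conjugation, the modification that activates cullins, 6 had log2 fold changes below 0 at EX and 5 at D6. Their medians were -0.58 and -0.18. At each phase 2 were called lower (25%) and 1 higher (12.5%), where 17.1% and 18.5% of all genes fell. *UBC12* gave -2.03 and -1.34, *UBA3* gave -1.28 and -1.02, and *LAG2*, which restrains cullin activation, gave 1.46 and 1.45. Of the remaining APC genes, the meiotic activator *AMA1* gave 1.79 and 1.66 and the Cdh1 inhibitor *ACM1* gave -1.46 and -1.17. Of 5 other GID genes, 3 rose at each phase (60%): *GID8*, *UBC8*, its E2, and *VID30*. 

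All 4 measured GID substrates rose at both phases, as did 819 of the 5444 genes. They ran from *MDH2* at 1.74 and 1.33 to *PCK1*, the gluconeogenic carboxykinase, at 3.64 and 3.75. Of 15 SCF substrates, 4 rose and 3 fell at EX and 5 rose and 5 fell at D6, which is 26.7% and 20% at EX and 33.3% each way at D6, beside the 17.2% and 17.1%, and 17.9% and 18.5%, of all genes. The Mdm30 target *FZO1* gave 2.43 and 2.49, the Met30 target *MET4* 1.60 and 1.46, and the Ucc1 target *CIT2* 1.76 and 1.51, while the G1 cyclins *CLN1* and *CLN2*, targets of Grr1, gave -2.63 and -2.38 at EX. *AAH1*, the Saf1 target, read 8.15 and 8.34 in control EX, 9.66 and 9.67 in control D6, 7.92 and 7.66 in L-UBB+1 EX, and 7.65 and 7.87 in L-UBB+1 D6. Its control D6 arrays stood above all others, and the log2 fold change was -0.45 at EX and -1.91 at D6. Of 10 APC substrates, 1 rose and 1 fell at each phase, a share of 10% each way that is below that of all genes. The mitotic cyclin *CLB2* gave -2.19 and -2.42 and the spindle protein *ASE1* 1.66 and 1.40. These are levels of transcripts, and protein levels were not measured on these arrays.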

How the data were processed

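Transcripts were measured on 8 arrays, 2 biological replicates of each strain and phase. Per the labels and methods, the authors processed the scanned arrays with the PIANO package in R (version 3.2.3 in the submitters' processing notes). They deposited 1 log2 value for each probe set and array. The normalization method was not given in the sources used here. This table was analysed as deposited, and the number of arrays limits the precision. Samples were grouped by the titles in the labels, which give no batch or scan date. The platform annotation tied 5489 of 5705 probe sets to 1 gene (12 symbols updated), and the 216 others were left out. Where several probe sets read a gene (43 genes), the brightest on average stood for it, which left 5444 genes.

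The 4 group means were fitted per gene in limma 3.58.1 (R 4.3.3), with 4 residual and 3.26 prior degrees of freedom and Benjamini-Hochberg adjustment over all genes. Calls required adjusted p-values below 0.001 and at least a 1-unit change in log2 expression. The fit was tested on simulated data. Intervals are at 95%. Every array value was given, in each role group, for up to 3 members with the largest change among those called at EX and for the one with the smallest change, for members called lower, for the 3 with the smallest p when the strain effect was compared between phases, for the pairs *DMA1* and *DMA2*, *UBR1* and *UBR2*, and *CDC20* and *CDH1*, and for *CDC53*, *SKP1* and *HRT1*. Other members are named with fold changes. *SAF1* and *AAH1* were given with every array after their values were seen. The members and lists were chosen with earlier results of these data known. No sequences were used here. Alternatives changed the normalization, dim genes, probe sets, the set of arrays fitted, the variance prior, a replicate block, thresholds, the test (an equal-variance t test), the doubted arrays and each single array.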

Additional observations from a re-analysis of the deposited data

How the results depend on the processing

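Quantile or median scaling, the mean of all probe sets, a fit on the compared arrays alone, other priors and an adjusted p of 0.05 with the fold minimum kept the count of called members within 1.5 times the reported 24 at EX and 21 at D6. With the dimmest 0.25 of genes left out, 40 members were tested and their median log2 fold change was 1.21 at EX and 1.1 at D6. This filter used the L-UBB+1 arrays too, so it favoured genes that rose. *CDC26* (mean 7.07 in control EX, 8.88 in L-UBB+1 EX) stayed, and *DIA2* (7.7 and 7.04) was left out. No member left out had been called at either phase. The higher medians can thus come from the filter itself, and no conclusion is drawn from them. Without a fold minimum, at an adjusted p under 0.05, 41 members passed at EX and 39 at D6. The equal-variance t test called 0 and 0 at an adjusted p under 0.001 with the fold minimum, and after adjustment at 0.05 without it passed 31 higher and 1 lower at EX (54.3% of all genes) and 25 higher and 1 lower at D6 (45.3%). Without the arrays labelled control D6 and L-UBB+1 EX, the median for L-UBB+1 D6 against control EX was 1.00, where 1.03 was reported at EX and 0.88 at D6. With L-UBB+1 EX replicate 1 and D6 replicate 2 left out together, an alternative chosen after seeing the data, the median at EX was 0.95. With 1 array left out in turn, 20 to 25 members were called at EX, 17 to 21 at D6 and 0 to 0 for the phases and the difference of the strain effect, and the medians ran from 0.95 to 1.03 and from 0.82 to 0.93. The calls at EX that failed in some such fit were those of *BRE1*, *CDC16*, *VID24*, *RMD5* and *FYV10*, and at D6 those of *SAF1*, *CDC16*, *VID24* and *RMD5*; *CDC16* lost its call without control EX replicate 1 in the EX comparison (adjusted p = 0.00129), and without L-UBB+1 D6 replicate 2 (0.00142) or control D6 replicate 2 (log2 fold change 0.90) in the D6 comparison. *VID24* was lost at EX without control EX replicate 1 or L-UBB+1 EX replicate 1 and at D6 without either control D6 array, and *FYV10* at EX without control EX replicate 2 or L-UBB+1 EX replicate 2. The log2 fold change of *HEL2* at EX ran from -0.24 to 0.16 with 1 array left out, and its sign turned to 0.02 without control EX replicate 2, 0.16 without L-UBB+1 EX replicate 2 and 0.16 without L-UBB+1 EX replicate 2 and D6 replicate 1 together, and that of *UBR2* at D6 turned to -0.02 without L-UBB+1 D6 replicate 2 and -0.02 without L-UBB+1 EX replicate 1 and D6 replicate 2 together. The cause was not tested. A replicate block, in which the numbers of the labels did not pair the samples (correlations of deviations from -0.855 to 0.364), left 23 members called at EX and 21 at D6, and the crossed pairing of the L-UBB+1 arrays, chosen after seeing the data, gave 25 and 21.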
